A study of Mus musculus with 84 samples.

Results

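H3K4me3 was compared at the promoters of labelled adipocytes from mice that had lost weight after a 12-week high-fat diet and from age-matched chow-fed mice, using 6 of the 84 CUT&Tag libraries of the series (21 of which are H3K4me3 libraries). In CUT&Tag an antibody brings a transposase to a histone mark, where it cuts the DNA and adds sequencing adapters. HC mice (HC_short in the sample names, 3 libraries) ate high-fat food for 12 weeks and then returned to chow for 8 weeks, and CC_s mice (CC_short, 3 libraries) received chow throughout. Both groups were 26 weeks old, and the libraries of each group are labelled as biological replicates. All mice carried AdipoERCre, a tamoxifen-inducible Cre under the Adipoq promoter, together with the NuTRAP reporter, on a background that the labels write as C576BL6, and received tamoxifen before the diet began. Biotin-tagged nuclei of epididymal fat were pulled down, so the libraries cover cells that had recombined before the diet and whatever else was carried along. A promoter was the window of 2000 bp on either side of each start site of 21851 protein-coding genes (GENCODE, GRCm38), with 1 value per gene, and it was marked when a peak overlapped it by at least 1 bp. A promoter was called gained when marked in 3 of 3 HC and 0 of 3 CC_s libraries, and lost in the reverse case.

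H3K4me3 is deposited by SET1 and MLL complexes around the start sites of active genes, and broad H3K4me3 domains often cover genes that define a cell type. In adipocytes the mark lies at genes for fat storage and release, hormone secretion and insulin-stimulated glucose uptake, many of them under the control of the nuclear receptor PPAR-gamma. Promoters can also carry H3K4me3 and the polycomb mark H3K27me3 together, and CpG-rich promoters tend to carry H3K4me3 in many cell types.

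The peak lists were uneven in depth and in cell content. The HC libraries held 18645, 16757 and 24506 peaks and the CC_s libraries 12534, 14617 and 21945 (log2 difference 0.31, exact permutation p = 0.400, two-sided, where 3 against 3 libraries cannot go below 0.1). Mean coverage in peaks ran from 13.4 in HC replicate 3 to 77.7 in HC replicate 1, and the read depth behind it is unknown. HC replicate 3 stood apart from the other libraries. Its log2 promoter signal correlated with theirs at r between 0.64 and 0.70, against 0.78 to 0.86 among the others (across promoters, which are not independent replicates). It had a peak at 13 of 16 endothelial marker promoters, such as those of Cdh5, Tek and Erg, where HC replicates 1 and 2 had 5 and 2 and the CC_s libraries 0, 0 and 3. It had a peak at 8 of 20 macrophage promoters, where the others had 0 to 2, while Lyz2, Itgam and Mrc1 had no peak in any of the 6 libraries. Progenitor markers had a peak at 6, 4 and 9 of 14 promoters in HC and at 2, 2 and 7 in CC_s, and lymphocyte markers at 3, 2 and 6 of 19 in HC and at 1, 0 and 2 in CC_s. By number of marked promoters, HC replicates 1 and 2 thus also lay above CC_s replicates 1 and 2 for endothelial, progenitor and lymphocyte markers. CC_s replicates 1 and 2 had the shortest peak lists of the 6, and CC_s replicate 3 matched or exceeded HC replicate 2 in each of these counts. Summed signal is given scaled to the library median. Endothelial markers had 1.57 and 0.812 in HC replicates 1 and 2 and 0, 0 and 0.697 in CC_s. Lymphocyte markers had 1.15 and 1.32 against 0.569, 0 and 0.793. For both lists HC replicates 1 and 2 lay above each CC_s library. Progenitor markers overlapped, with 2.74 and 2.29 against 1.98, 2.66 and 4.00, and so did macrophage markers, with 0.570 and 0.205 against 0, 1.01 and 1.56. Adipoq and Pparg, which define adipocytes, had a peak in 6 of 6. Results are therefore given with and without HC replicate 3. The part of other cell types in them was not tested, and in nuclei pooled from a tissue, a smaller share of adipocyte nuclei and less mark per nucleus cannot be told apart.

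The mean number of marked promoters was higher in HC, by less than the test could tell from the spread between libraries. The HC libraries marked 11733, 11096 and 12692 promoters and the CC_s libraries 10144, 10464 and 12076, so that the means of 11840 ± 803 and 10895 ± 1036 (SD, n = 3 each) differed by 946 (exact permutation p = 0.3, two-sided). The difference was 520 without HC replicate 3, 570 without CC_s replicate 1 and 1536 without CC_s replicate 3. When each library was limited to its 12534 peaks of highest total signal, the difference was 42.3 promoters (exact permutation p = 1.00). Of all promoters, 9520 (43.6%) were marked in 6 of 6 libraries and 8410 in none.

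With all peaks, 70 promoters in 62 separate loci were gained (0.320% of all promoters) and 4 were lost (0.0183%). With equal peak numbers, 42 promoters in 36 loci were gained (0.192%) and 35 in 34 loci were lost (0.160%). The gained share of the called promoters was thus 94.6% with all peaks and 54.5% with equal peak numbers. Promoters next to these calls were more numerous. A total of 337 promoters were marked in 3 HC and 1 CC_s libraries and 201 in 2 HC and 0 CC_s libraries. On the lost side, 27 were marked in 1 HC and 3 CC_s libraries and 30 in 0 HC and 2 CC_s libraries. With equal peak numbers these counts were 108 and 165 on the gained side and 174 and 73 on the lost side. Only 14 gained promoters, 20% of the 70 and 33.3% of the 42, and 2 lost promoters were called both ways. No per-promoter test was made, because the presence of a peak in 3 against 3 libraries cannot pass the 0.05 threshold.

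**Figure D1:**
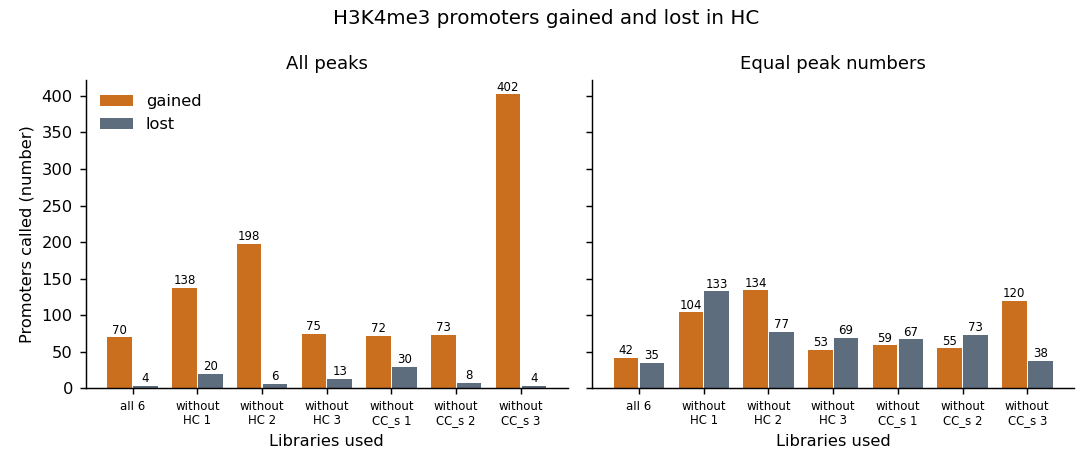
Number of promoters called gained (orange) and lost (grey) in HC, with all 6 libraries and with each library left out, for all peaks (left) and equal peak numbers (right). The gained count is 70 with all libraries and 402 without CC_s replicate 3, and losses outnumber gains in 4 of the 6 omissions with equal peak numbers.

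Both counts depended on single libraries, as the plot of called promoters shows. With all peaks, leaving out CC_s replicate 3, HC replicate 2 or HC replicate 1 raised the gained count to 402, 198 and 138. Leaving out CC_s replicate 1, HC replicate 1 or HC replicate 3 raised the lost count to 30, 20 and 13. Without HC replicate 3 the gained count was 75, which adds 5 promoters to the 70.

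The 14 gained promoters called both ways included 7 of histone genes, and the strongest were those of Mndal and Apobec3. Of the 19 matched genes of the interferon list, 1 was gained with all peaks and 0 with equal peak numbers, and neither Mndal nor Apobec3 is on that list. In the sentences that follow, relative signal is the summed coverage of all peaks at a promoter divided by the library's median over the 9520 promoters marked in all 6 libraries, so that 1 is a typical promoter. The smallest listed peak corresponded to a relative signal of 0.157, 0.201 and 0.176 in HC and 0.281, 0.252 and 0.0940 in CC_s. Mndal, an interferon-inducible DNA-binding protein of the HIN-200 family, had a relative signal of 0.879, 1.04 and 2.72 in HC replicates 1 to 3. Mndal shares a window with Ifi203, so the same peak can count for both genes. Apobec3, a cytidine deaminase that restricts retroviruses, had 0.606, 0.639 and 1.65. None of the CC_s libraries listed a peak at either promoter, and HC replicate 3 was the highest at both.

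Core histone genes made up 6 of the 14 and lay in 2 blocks on chromosome 13. Hist1h2ao, Hist1h2bq and Hist1h4m, which share a window, had a relative signal of 0.585, 0.747 and 1.38, and Hist1h2ap, Hist1h2br and Hist1h4n had 0.529, 0.346 and 1.35. The linker histone gene Hist1h1b, whose window overlaps that of Hist1h3i, had 0.298, 0.343 and 0.976. Together, 7 of 101 histone genes were gained (6.93%, beside 0.320% of all promoters). They come from 3 sets of overlapping or neighbouring windows with near-identical copies, so they are not 7 separate events, and reads could be split between copies.

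The other promoters called both ways had moderate signal. Elk3, an ETS-family transcription factor, had 0.504, 0.359 and 1.46. Rftn1, a lipid-raft protein, had 0.603, 0.660 and 0.808, and A4galt, which makes the glycolipid Gb3, had 0.611, 0.598 and 0.725. Of the 14 promoters these had the closest HC values, although HC replicate 3 was the highest HC library at 14 of 14. Slc16a13, a member of the monocarboxylate transporter family, had 0.309, 0.333 and 0.647, and the uncharacterised 2900026A02Rik had 0.649, 0.298 and 1.37.

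**Figure D2:**
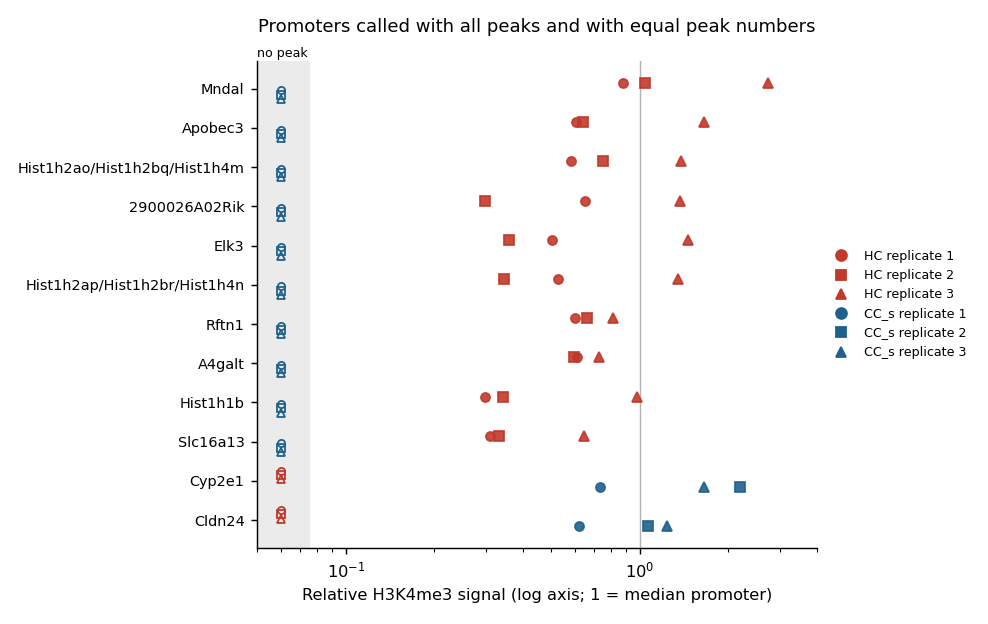
Relative H3K4me3 signal (log axis) at the promoters called gained or lost both with all peaks and with equal peak numbers, for each HC (red) and CC_s (blue) library, with genes that share a window on 1 line and open symbols in the grey band for libraries with no peak. HC replicate 3 (red triangles) is the highest library at each gained promoter, and Cyp2e1 and Cldn24 are marked in CC_s alone.

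Among promoters gained with all peaks only, the named immune and endothelial genes had their highest signal in HC replicate 3. S1pr1, a sphingosine-1-phosphate receptor, had a relative signal of 0.427, 0.616 and 1.93 in HC replicates 1 to 3. Irf5, a transcription factor of innate immunity, had 0.306, 0.234 and 1.96, and the adhesion molecule gene Icam1, a published example of this study, had 0.182, 0.234 and 1.45. The interferon-inducible GTPase genes Gbp9, Gbp4 and Gbp8 share windows, and Gbp9 had 0.176, 0.574 and 1.37. Both values of Icam1 in HC replicates 1 and 2, and that of Irf5 in HC replicate 2, lay below the smallest listed peak of CC_s replicates 1 and 2, so a promoter of that strength would not have been listed there. Fes, a tyrosine kinase, had 0.262, 0.620 and 1.35, and Ggta1, which makes the alpha-gal epitope, had 0.276, 0.365 and 1.62. Ifi203, which shares a window with Mndal and is not a separate locus from it, had 0.249, 0.478 and 1.10. From the marker and pathway lists, Cdk1, the mitotic kinase, had 0.321, 0.269 and 0.828, and Dpp4, a marker of adipocyte progenitors, had 0.166, 0.246 and 0.448.

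Most gained promoters were weak in HC replicates 1 and 2. The median relative signal of the 70 was 0.245 in HC replicate 1, 0.292 in HC replicate 2 and 0.820 in HC replicate 3, which placed the median gained promoter at the 6.43, 8.02 and 45.9 percentile of marked promoters in these libraries. Only 17 of the 70 exceeded 0.281, the highest floor among the CC_s libraries, in 3 of 3 HC libraries. These 17 are the 14 promoters called both ways and those of S1pr1, Rcsd1 and Nxn.

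With equal peak numbers, 28 further promoters were gained, and each had a listed peak in CC_s replicate 3 that fell outside its strongest 12534. Pltp, the phospholipid transfer protein, had a relative signal of 1.42, 0.465 and 1.15 in HC, and 0.171 in CC_s replicate 3 alone. Isyna1, which makes inositol phosphate, had 0.879, 0.402 and 1.19 in HC and 0.194 in CC_s replicate 3. Pcdh1, a protocadherin, had 1.32, 0.923 and 1.76 in HC, no peak in CC_s replicate 1, and 0.298 and 0.188 in the other CC_s libraries. At these promoters each HC library lay above each CC_s library, which largely restates the call, since it ranks peaks by this signal. Fam198b, Camk1d, Zfp827, Tmem176a and Tmem176b were also named, with HC values between 0.285 and 1.57. Of these, the groups overlapped at Zfp827, with 0.285 in HC replicate 1 and 0.458 in CC_s replicate 3. The proliferation marker Mki67 was called here too, with 0.338, 0.323 and 0.666 in HC and 0.240 in CC_s replicate 3.

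The lost promoters were those of 2 cytochrome P450 genes and 2 other genes. Cyp2e1, an enzyme that oxidises ethanol and fatty acids, had a relative signal of 0.730, 2.20 and 1.65 in CC_s replicates 1 to 3 and no peak in HC. Cldn24, a claudin whose window overlaps that of Cldn22, had 0.620, 1.07 and 1.24 in CC_s. These promoters were lost both ways, and their CC_s values lay above the smallest listed peak of each HC library (at most 0.201). Cyp2f2, a P450 enzyme best known from lung and liver, had 0.330, 0.328 and 0.153, and Vmo1, a vitelline membrane protein homologue, had 0.325, 0.254 and 0.172. These were called with all peaks only, and their CC_s replicate 3 values were below that HC floor. H3K27ac was present at all 4 promoters in 2 of 2 CC_s libraries. In HC it was present at Cyp2f2 in 3 of 3, at Cldn24 in 2 of 3, at Cyp2e1 in 1 of 3 and at Vmo1 in 0 of 3 libraries. Cyp2e1 was marked by H3K4me3 in 3 of 3 C, 1 of 3 H and 2 of 3 HHC libraries.

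With equal peak numbers, 33 further promoters were lost, and these often kept a weak peak in HC when all peaks were used. Ptges, the inducible prostaglandin E synthase, had a relative signal of 0.541 and 0.266 in HC replicates 1 and 2, no peak in HC replicate 3, and 0.651, 1.27 and 1.48 in CC_s. Orm1, an acute-phase plasma protein, had 0.159 in HC replicate 1, no peak in HC replicates 2 and 3, and 0.522, 0.710 and 0.749 in CC_s. Steap2, a metalloreductase, had 0.177 in HC replicate 3 alone and 0.411, 0.855 and 0.687 in CC_s. Steap2 carried H3K27me3 in 3 of 3 HC and 0 of 3 CC_s libraries, and no other promoter of this set did. Groups did not overlap at Ptges, Orm1 and Steap2, which again largely restates the call. Gm20547, which shares its window with the complement gene C2, Bcl2l10, Nlrx1, Src and Kctd12b were the other named promoters of this set, with CC_s values between 0.460 and 1.16. Of these, the groups overlapped at Kctd12b, with 0.595 in HC replicate 3 and 0.460 in CC_s replicate 1.

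Sequences are shown for the promoters that carry these calls, because the marked and unmarked sets differed in CpG content. They were read from RefSeq (GRCm38.p6), from 250 bases before to 50 after the start site, which held 52 of the 70 gained, 4 of the 4 lost and 16877 of all 21851 promoters. The median ratio of observed to chance CpG was 0.592 at gained promoters, 0.164 at lost promoters, 0.801 at promoters marked in all 6 libraries, 0.202 at those marked in none and 0.589 overall. The interferon element searched for, GAAANNGAAA on either strand, was in 4 of the 52 gained promoters (7.69%, those of Apobec3, Dpp4, Ifi203 and Mndal) and in 584 of all (3.46%). The CCAAT box, CCAAT on either strand, was in 15 of the 52 (28.8%, 5 of them histone genes) and in 38.9% of all. These motifs were chosen after the calls were seen, and a match is only a match of letters. Capitals mark the interferon element in Mndal (chr1:173880138-173880437, - strand) and Apobec3 (chr15:79892158-79892457, + strand), CCAAT in Hist1h2ao (chr13:21810117-21810416, + strand) and CG in Cyp2e1 (chr7:140763569-140763868, + strand), all printed 5′ to 3′ along the gene's strand.
Mndal: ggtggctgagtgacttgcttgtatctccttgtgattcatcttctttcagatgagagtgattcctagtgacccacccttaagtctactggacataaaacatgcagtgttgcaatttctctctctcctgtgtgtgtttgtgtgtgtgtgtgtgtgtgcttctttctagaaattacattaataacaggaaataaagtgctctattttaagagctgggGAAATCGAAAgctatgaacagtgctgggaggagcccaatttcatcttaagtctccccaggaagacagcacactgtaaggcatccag
Apobec3: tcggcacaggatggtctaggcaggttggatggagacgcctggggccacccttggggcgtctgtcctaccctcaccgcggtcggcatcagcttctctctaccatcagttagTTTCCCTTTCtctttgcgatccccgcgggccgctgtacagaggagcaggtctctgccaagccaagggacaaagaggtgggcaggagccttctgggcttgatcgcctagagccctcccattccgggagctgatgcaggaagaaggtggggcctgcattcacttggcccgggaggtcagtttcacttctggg
Hist1h2ao: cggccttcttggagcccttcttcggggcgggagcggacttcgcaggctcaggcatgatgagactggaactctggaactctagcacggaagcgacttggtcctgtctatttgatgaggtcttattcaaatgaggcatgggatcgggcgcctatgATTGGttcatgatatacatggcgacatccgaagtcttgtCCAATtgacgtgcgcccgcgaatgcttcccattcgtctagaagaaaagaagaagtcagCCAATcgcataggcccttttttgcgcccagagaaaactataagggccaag
Cyp2e1: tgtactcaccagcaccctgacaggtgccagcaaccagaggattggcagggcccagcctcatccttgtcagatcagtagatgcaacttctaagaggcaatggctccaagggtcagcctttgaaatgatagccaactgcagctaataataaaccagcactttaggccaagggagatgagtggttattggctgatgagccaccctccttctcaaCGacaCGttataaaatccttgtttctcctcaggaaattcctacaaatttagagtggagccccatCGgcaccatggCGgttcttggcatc

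Counted from the RefSeq start site, the Mndal element begins at position -36 and the Apobec3 element at position -140. The Cyp2e1 promoter holds 4 CG pairs in 300 bases, with an observed to chance ratio of 0.217, and the Hist1h2ao promoter has a ratio of 0.893.

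The gained promoters were marked in most other groups of the series, controls included. The share of the 70 with an H3K4me3 peak was 90.0% ± 4.29 (SD, n = 3) in C, the chow-fed mice of 18 weeks. It was 60.5% ± 48.9 (SD, n = 3) in H, mice at the end of the 12-week diet, where H replicate 3 had 4.29%. H replicate 3 held the fewest peaks of the H3K4me3 libraries (11249), with a floor of 0.374 in relative signal, and marked 41.7% of all promoters. In the cohort with a 25-week diet the share of the 70 was 97.1% in CC_l, 100% in HH, 89.3% in CCC and 99.5% in HHC. Over all promoters the share was 58.7% in C, 50.7% in H, 62.8% in CC_l, 63.5% in HH, 62.8% in CCC and 64.7% in HHC, against 49.9% in CC_s. The C, CC_l and CCC libraries held between 22422 and 35776 peaks, more than any CC_s library, and the part of peak number in these shares was not tested. Treatment fields disagree with titles for 4 libraries of the 25-week cohort, among them both HH libraries, 1 of 2 CC_l and 1 of 2 CCC libraries, and titles were used. The 4 lost promoters were marked in 3 to 4 of 4 cases in each C, CC_l, HH and CCC library. They were marked in 0 or 1 case in each H library, and in 3, 4 and 1 of 4 cases in HHC replicates 1 to 3.

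**Figure D3:**
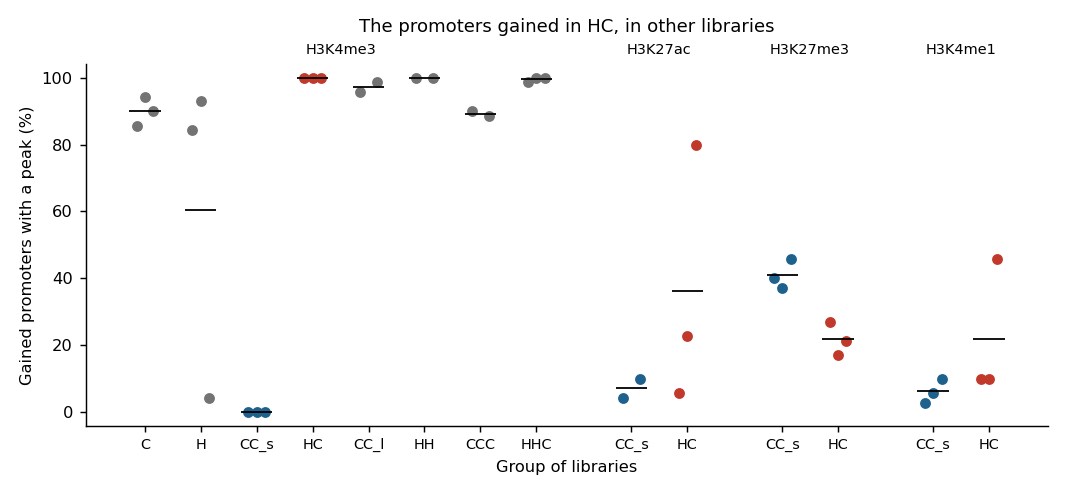
Percent of the 70 gained promoters that hold a peak in each library, for H3K4me3 in all 8 groups and for H3K27ac, H3K27me3 and H3K4me1 in CC_s (blue) and HC (red), with 1 point per library and a line at the group mean. H3K4me3 is at 0% in CC_s and 100% in HC by the rule, near 90% or above in the other control groups, and H3K27me3 is lower in each HC library than in each CC_s library.

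Other marks from the same animals, according to the study, were not used by the calls. H3K27me3 was present at 27.1%, 17.1% and 21.4% of the gained promoters in HC and at 40%, 37.1% and 45.7% in CC_s, without overlap between the groups. Over all promoters the same mark was present at 14.4% ± 3.81 in HC and 15.9% ± 0.691 in CC_s (SD, n = 3 each). It was present in 3 of 3 CC_s and at most 1 HC library at 13 gained promoters. These were those of Irf5, Icam1, S1pr1, Ahr (the aryl hydrocarbon receptor), Lrrc32, Ggta1, Slc16a13 and 6 histone genes that lie in 2 blocks of shared windows. In the other direction, Dpp4 carried it in 3 of 3 HC and 0 of 3 CC_s libraries, and Ptger2 in 2 of 3 and 0 of 3. How many of all promoters had either pattern was not counted. With equal peak numbers the HC shares were 40.5%, 9.52% and 16.7% against 40.5%, 38.1% and 42.9% in CC_s, so that HC replicate 1 lay within the CC_s range. H3K27ac was present at 5.71%, 22.9% and 80.0% of the gained promoters in HC replicates 1 to 3 and at 4.29% and 10.0% in the 2 CC_s libraries. HC replicate 3, which also holds the endothelial and macrophage marker peaks, was the highest in H3K27ac and in H3K4me1 (45.7%, against 2.86% to 10.0% in the other libraries). Over all promoters HC replicate 3 was also the highest, at 48.8% for H3K27ac against 25.2% to 40.4%, and at 19.3% for H3K4me1 against 6.09% to 16.2%.

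Signal was then compared at the 9520 promoters marked in all 6 libraries. Adipocyte genes had lower means in HC, but no single promoter passed limma's test with Benjamini-Hochberg adjustment (smallest adjusted p = 0.175). At an unadjusted p under 0.05 limma gave 358 promoters higher and 495 lower in HC. Groups did not overlap at 630 promoters higher in HC (6.62%) and at 807 lower (8.48%), and the median log2 difference over all 9520 was -0.02.

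The adipocyte markers had a median below that of CC_s in each HC library. Of 20 markers, 14 were marked in all 6 libraries, 14 of 14 had a lower mean in HC, and the groups did not overlap at 10, beside 8.48% of all promoters. The median log2 difference was -1.36, with -0.63, -0.85 and -2.37 for HC replicates 1 to 3 against the CC_s mean. Without HC replicate 3 the median was -0.82, 18 of 18 testable markers had a lower mean, and the groups did not overlap at 13 (72.2%, beside 13.5% of all promoters). The endothelial, progenitor and lymphocyte marker counts given above were higher in HC replicates 1 and 2 than in CC_s replicates 1 and 2. CC_s replicate 3 matched or exceeded HC replicate 2 in each of these counts. By summed signal, endothelial and lymphocyte markers were higher in HC replicates 1 and 2 than in each CC_s library. Progenitor and macrophage markers overlapped by that measure. The part of other cell types in the adipocyte difference was not tested.

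Among the adipocyte markers, 3 coat or fusion proteins of lipid droplets are given first. Plin4, a coat protein of lipid droplets, had a relative signal of 1.51, 0.911 and 0.396 in HC and 3.12, 3.44 and 4.21 in CC_s (log2 difference -2.12 ± 0.38, SE, limma adjusted p = 0.187). Cidec, which fuses lipid droplets, had 2.54, 1.64 and 0.240 in HC and 4.36, 4.35 and 6.13 in CC_s. Plin1, the coat protein that gates lipolysis, had 2.48, 1.59 and 0.209 in HC and 3.73, 2.60 and 5.44 in CC_s. The groups did not overlap at these promoters, and HC replicate 3 was the lowest at each. Cidea, another lipid droplet protein of the list, had weak peaks of 0.236, 0.236 and 0.295 in HC and of 0.276 in CC_s replicate 3 alone. The smallest listed peaks of CC_s replicates 1 and 2 were at 0.281 and 0.252, above the values of HC replicates 1 and 2. No direction can therefore be read at Cidea. Without HC replicate 3, Plin4 passed the test (log2 difference -1.60 ± 0.22, SE, limma adjusted p = 0.0360, with a range of 0.0185 to 0.644 over the alternatives).

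Pparg, the master regulator of adipocyte differentiation, had 3.87, 3.55 and 0.796 in HC and 7.04, 4.82 and 8.03 in CC_s. Ebf2, a transcription factor that acts with it, had close values within each group, with 1.22, 1.11 and 1.04 in HC and 2.13, 2.68 and 2.25 in CC_s (log2 difference -1.07 ± 0.18, SE, limma adjusted p = 0.175). Of the 20 adipogenic and PPAR genes, 20 were marked in all 6 libraries and 18 had a lower mean. The groups did not overlap at 5 lower promoters and 1 higher, that of Klf5, beside 8.48% lower and 6.62% higher of all promoters tested. Klf5, a Krüppel-like factor of early adipogenesis, had 0.486, 0.574 and 0.837 in HC and 0.360, 0.336 and 0.262 in CC_s. The list's median was -0.54, and -0.28 without HC replicate 3.

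Genes of triglyceride synthesis and fat release followed. Gpam, the first enzyme of glycerolipid synthesis and a published example, had a relative signal of 1.32, 2.24 and 0.755 in HC and 3.68, 3.67 and 3.52 in CC_s (log2 difference -1.47 ± 0.31, SE, limma adjusted p = 0.291). Acacb, an acetyl-CoA carboxylase and another example, had 0.665, 0.554 and 0.180 in HC and 1.5, 1.74 and 1.26 in CC_s (-1.88 ± 0.42, SE, limma adjusted p = 0.295). The CC_s libraries lay close together at Gpam and above each HC library at both promoters. Pck1, which feeds glycerol synthesis, had 1.00, 1.3 and 0.210 in HC and 3.54, 2.49 and 3.91 in CC_s. Dgat2, which makes triglyceride, had 2.11, 2.80 and 0.938 in HC and 3.46, 4.39 and 4.47 in CC_s. Groups overlapped at Fasn, the fatty acid synthase, with 2.13, 2.65 and 0.951 against 1.82, 2.90 and 2.66. Of the 20 genes of this list 16 were marked in all 6 libraries and 14 had a lower mean (median -0.76, and -0.44 without HC replicate 3). At 6 the HC values were lower without overlap, beside 8.48% of all promoters tested.

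Adrb3, the beta-3 adrenergic receptor that triggers lipolysis, had 1.86 and 1.53 in HC replicates 1 and 2, no peak in HC replicate 3, and 3.67, 3.40 and 4.16 in CC_s. Without HC replicate 3 it passed with Cnn2, Plin4, Pck1 and Syde2 (5 lower, 0 higher). The Adrb3 log2 difference was then -1.14 ± 0.17 (SE, limma adjusted p = 0.0385). In the fit of the 11037 promoters marked in at least 4 of 6 libraries, where the missing HC replicate 3 value was set to the smallest listed signal of that library, Adrb3 did not pass (-2.23 ± 0.68, SE, limma adjusted p = 0.399), and neither did any other promoter. Lipe, the hormone-sensitive lipase, had 7.68, 7.30 and 2.81 in HC and 11.4, 9.20 and 12.0 in CC_s. Of the 16 lipolysis and adrenergic genes, 13 were marked in all 6 libraries and 12 had a lower mean (median -0.91, and -0.50 without HC replicate 3). At 7 the HC values were lower without overlap, beside 8.48% of all promoters tested.

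Insulin response genes were mixed. Slc2a4, the insulin-responsive glucose transporter, had 1.45, 1.06 and 0.476 in HC and 1.71, 1.82 and 2.22 in CC_s. Trarg1, which traffics with it, had 2.16 and 2.15 in HC replicates 1 and 2, no peak in HC replicate 3, and 3.45, 4.05 and 4.06 in CC_s. The groups did not overlap at either promoter. The insulin receptor gene Insr had 1.53, 1.67 and 1.47 in HC and 1.82, 2.23 and 1.68 in CC_s, a small shift without overlap, and Foxo1 had 2.4, 3.36 and 2.72 against 2.37, 2.63 and 2.67, with overlap. Of 19 genes 15 were marked in all 6 and 12 had a lower mean (median -0.57, and -0.42 without HC replicate 3). At 6 the HC values were lower without overlap, beside 8.48% of all promoters tested.

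Hormone genes of adipocytes were less even. Lep, which encodes leptin, had 2.13 and 1.01 in HC replicates 1 and 2, no peak in HC replicate 3, and 3.50, 2.29 and 3.79 in CC_s. Adipoq, which encodes adiponectin, had 13.8, 12.2 and 0.825 in HC and 12.2, 16.1 and 14.5 in CC_s, so that the low library was HC replicate 3. Retn, which encodes resistin, had 1.22 and 0.886 in HC replicates 1 and 2, no peak in HC replicate 3, and 1.26, 2.07 and 2.51 in CC_s. Without HC replicate 3, 6 of 7 adipokine promoters had a lower mean (median -0.49). At 4 the HC values were then lower without overlap (57.1%, beside 13.5% of all promoters tested).

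**Figure D4:**
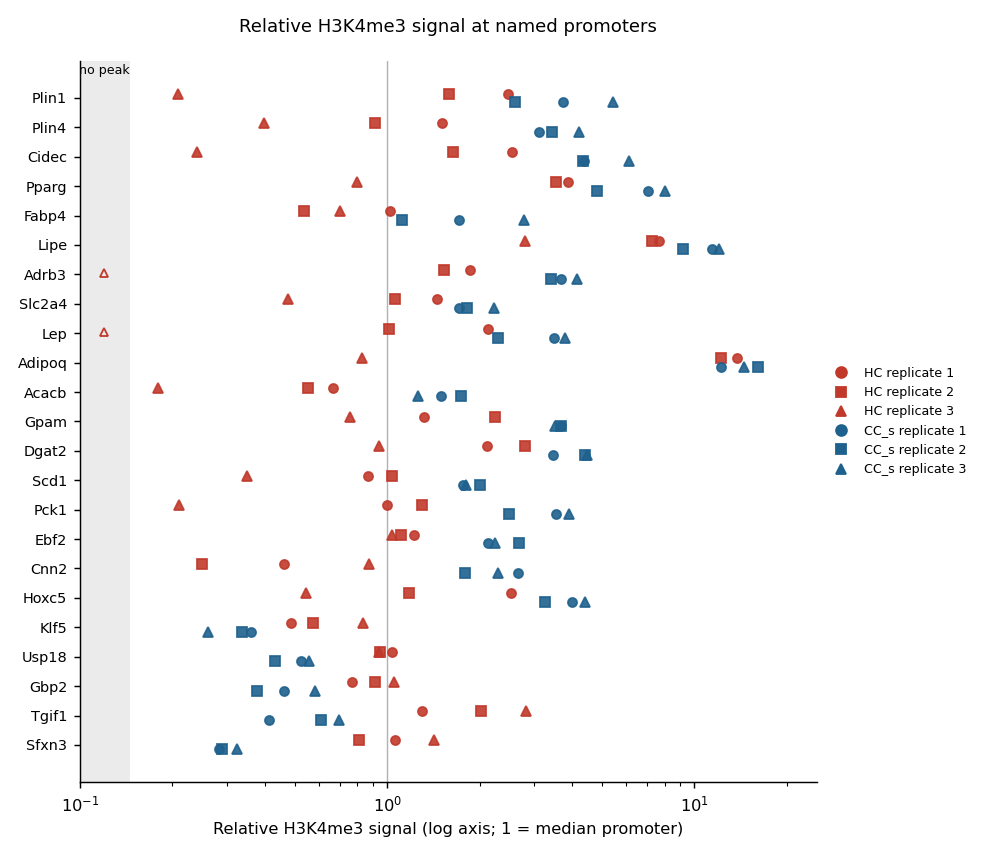
Relative H3K4me3 signal (log axis, 1 is the median promoter of a library) at named promoters in each HC (red) and CC_s (blue) library, with open symbols in the grey band for no peak. The HC libraries lie below the CC_s libraries from Plin1 to Hoxc5 apart from Adipoq and above them from Klf5 to Sfxn3, and HC replicate 3 (red triangles) is the lowest at most adipocyte promoters.

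The Plin4 and Gpam promoters are shown for their CpG content, with the CG pairs in capitals, from the same RefSeq windows (chr17:56109733-56110032, - strand and chr19:55127189-55127488, - strand). They hold 7 and 9 CG pairs, and their observed to chance ratios of 0.221 and 0.431 lie below the median of 0.801 for promoters marked in all 6 libraries.
Plin4: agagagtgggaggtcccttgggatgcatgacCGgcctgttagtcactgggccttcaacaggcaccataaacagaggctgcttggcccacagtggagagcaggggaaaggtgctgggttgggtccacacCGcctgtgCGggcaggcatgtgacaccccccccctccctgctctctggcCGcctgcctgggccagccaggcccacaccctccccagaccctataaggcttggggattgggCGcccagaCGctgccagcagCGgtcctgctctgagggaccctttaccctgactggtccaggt
Gpam: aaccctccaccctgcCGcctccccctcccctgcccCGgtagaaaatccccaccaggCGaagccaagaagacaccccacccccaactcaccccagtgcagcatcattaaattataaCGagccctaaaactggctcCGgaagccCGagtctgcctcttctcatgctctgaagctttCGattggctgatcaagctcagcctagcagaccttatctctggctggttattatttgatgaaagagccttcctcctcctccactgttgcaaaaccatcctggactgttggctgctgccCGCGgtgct

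The promoters with the smallest p-values outside these lists were named by rule. Cnn2, a calponin that binds actin, had 0.462, 0.249 and 0.875 in HC and 2.66, 1.79 and 2.29 in CC_s (log2 difference -2.25 ± 0.38, SE, limma adjusted p = 0.175, and 0.00631 without HC replicate 3, with a range of 0.000804 to 0.532 over the alternatives). Atp5g2, a subunit of ATP synthase, had 1.01, 1.14 and 1.38 against 2.16, 3.17 and 2.38. Gsta3, a glutathione transferase, had 0.441, 0.534 and 0.251 against 1.12, 1.39 and 1.15. In the other direction, Sfxn3, a mitochondrial serine carrier whose window overlaps that of Pdzd7, had 1.06, 0.807 and 1.42 in HC and 0.284, 0.290 and 0.324 in CC_s (log2 difference 1.84 ± 0.30, SE, limma adjusted p = 0.175). Tgif1, a repressor of TGF-beta responses, had 1.3, 2.02 and 2.82 against 0.411, 0.610 and 0.698. Tagln2, an actin-binding transgelin, had 1.31, 1.53 and 2.90 against 0.736, 0.264 and 0.480, and Atp8b2, a phospholipid flippase, had 1.38, 1.74 and 2.23 against 0.642, 0.722 and 0.829. The groups did not overlap at any of these promoters, which follows largely from choosing them by p-value in the same libraries. The limma adjusted p was above 0.05 for each with all 6 libraries.

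Of 28 chemokine and receptor promoters 17 had no peak in any of the 6 libraries and 0 were marked in all 6, beside 38.5% and 43.6% of all promoters. They were marked at 5, 5 and 9 promoters in HC and at 1, 3 and 5 in CC_s, so that the groups overlapped. Among 30 cytokine and innate immune genes 11 had no peak in any library, Il1a, Il1b and Il10 among them, and the 9 marked in all 6 had a median log2 difference of 0.01. Lyz2, a published example, had no peak in 6 of 6 libraries, and Tyrobp, another, had a peak in HC replicate 3 alone, at a relative signal of 0.670.

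Interferon genes had the highest median of the pathway lists with all 6 libraries, and this order rested on HC replicate 3. Of 19 matched genes, 9 were marked in all 6 libraries, with a median log2 difference of 0.31, and of 0.14, 0.07 and 0.91 for HC replicates 1 to 3. Without HC replicate 3 the median was 0.08, below those of the Wnt pathway (0.17), lysosome (0.12) and chromatin modifier (0.10) lists. Usp18, which restrains interferon signalling, had 1.04, 0.950 and 0.943 in HC and 0.524, 0.432 and 0.557 in CC_s, and Gbp2, a guanylate-binding protein, had 0.766, 0.912 and 1.05 against 0.463, 0.378 and 0.584. The groups did not overlap at these promoters, and HC replicates 1 and 2 alone also lay above each CC_s library. Irf3, a transcription factor that switches on interferon genes, did not overlap in the other direction, with 0.862, 1.02 and 0.972 in HC and 1.20, 1.27 and 1.12 in CC_s. Isg15, Mx1, Oas1a and Rsad2, which are strongly inducible by interferon, had a peak in HC replicate 3 only, at 0.838, 0.392, 0.455 and 0.604. Lysosomal genes had a higher mean in HC at 13 of 16 promoters (median 0.23, and 0.12 without HC replicate 3). Ctsa, a lysosomal carboxypeptidase, was higher and Npc2, a cholesterol carrier, was lower without overlap.

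Hox genes, which record position along the body axis, had mostly lower means in HC. Of 35 genes 11 were marked in all 6 libraries and 9 had a lower mean (median -0.73, and -0.61 without HC replicate 3). At 5 the HC values were lower without overlap, beside 8.48% of all promoters tested. Hoxc5 had 2.53, 1.18 and 0.544 in HC and 4.00, 3.26 and 4.41 in CC_s, and Hoxa7 had 0.273, 0.671 and 0.688 against 1.27, 0.990 and 1.20. Windows within a Hox cluster take up the same peaks (Hoxc5 and Hoxc6 both had 4.41 in CC_s replicate 3), so these genes are not independent.

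**Figure D5:**
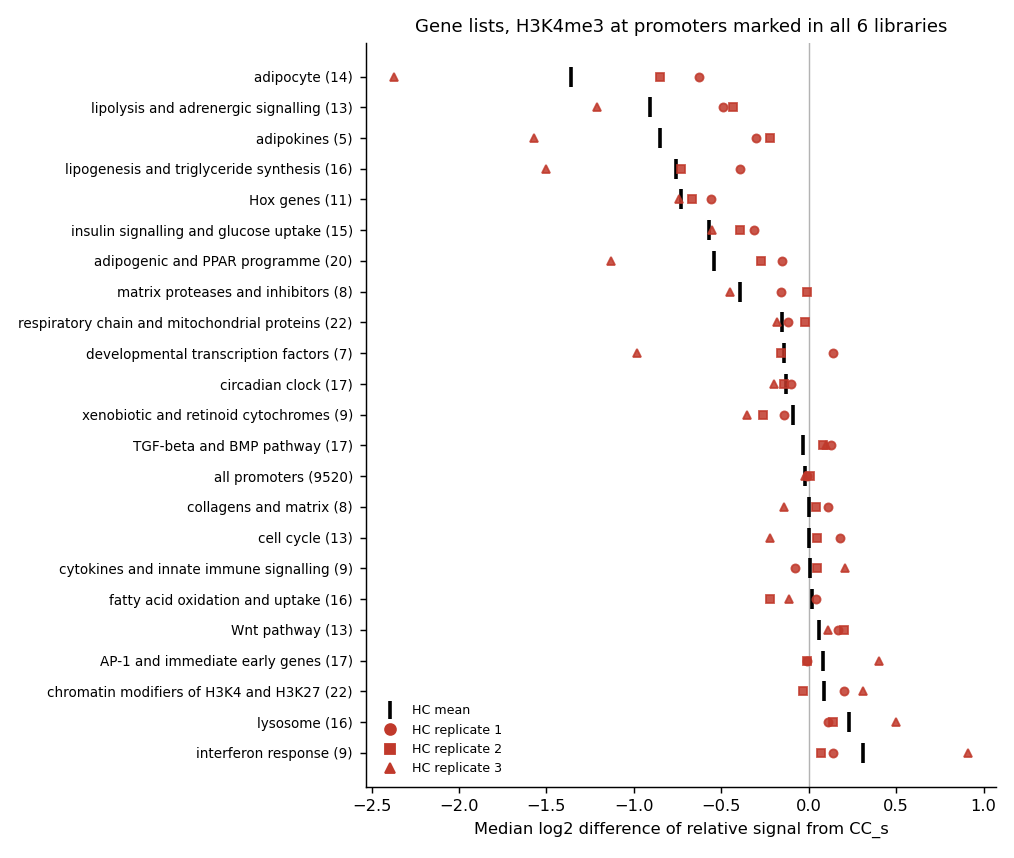
Median log2 difference in relative H3K4me3 signal between HC and CC_s over each gene list, with the number of promoters marked in all 6 libraries in brackets, for the HC mean (black bar) and for each HC library against the CC_s mean (red symbols). The adipocyte, lipolysis and lipogenesis lists lie below 0 in 3 of 3 HC libraries, and the interferon list lies highest for the HC mean and HC replicate 3 but not for HC replicates 1 and 2.

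Most of the remaining lists had medians near that of all promoters. The values were 0.09 for the chromatin modifiers of H3K4 and H3K27, 0.08 for AP-1 and immediate early genes, -0.13 for the circadian clock, -0.15 for respiratory chain genes, 0.02 for fatty acid oxidation and uptake, and 0.00 for the cell cycle. They were 0.06 for the Wnt pathway, 0.12 for MHC class II genes, -0.09 for xenobiotic cytochromes and -0.14 for developmental transcription factors (0.06 without HC replicate 3). Collagens and matrix genes were split, with 4 higher and 4 lower means. Matrix proteases and inhibitors had a median of -0.39 over 8 promoters, and of -0.05 without HC replicate 3. Complement had 2 promoters marked in all 6 libraries (median -0.74, and -0.55 over 4 promoters without HC replicate 3), of which C2 had 0.835, 0.668 and 0.356 against 2.32, 1.16 and 2.52. C2, Irf3, Ctsa and Npc2 were singled out after their values were seen.

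The difference at adipocyte promoters lay in peak width as well as in height. The median summed width of the peaks at the 14 adipocyte markers was 4.12, 3.12 and 1.78 kb in HC and 5.48, 4.82 and 11.3 kb in CC_s, where over all promoters it was 1.89, 1.36 and 2.10 kb and 1.45, 1.61 and 2.47 kb. Relative to the library median, 14 of 14 were narrower in HC (median log2 difference -0.74, beside -0.02 for all promoters). With the highest coverage in place of the summed signal, the adipocyte median was -0.46, that of the lipolysis genes -0.15 and that of the Hox genes -0.05.

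H3K27ac, which marks active promoters and enhancers, had lower means at the adipocyte, lipid and Hox lists. Its libraries were not used by the H3K4me3 comparison but come from the same animals, according to the study. Of 12 adipocyte promoters with H3K27ac in every HC and CC_s library, 11 had a lower mean in HC and 6 did not overlap (median log2 difference -1.33, and -0.52 without HC replicate 3, beside -0.01 for 4046 promoters, of which 11.7% were lower and 10.6% higher without overlap). Of 16 adipogenic and PPAR promoters, 15 had a lower mean and 10 did not overlap (median -1.26, and -1.01 without HC replicate 3). The 4 Hox promoters that could be compared had lower means (median -1.94, and -1.73 without HC replicate 3), and 5 of 5 interferon promoters had higher means (median 0.35, and 0.27 without HC replicate 3). Other lists shifted mostly through HC replicate 3. Lipolysis genes had a median of -0.84, and of -0.08 without HC replicate 3. In the same order, lipogenesis and triglyceride synthesis had -1.01 and -0.23, insulin signalling -0.63 and -0.20, and adipokines -1.17 and -0.09. CC_s had only 2 H3K27ac libraries, and HC replicate 3 of this mark held peaks at 12 macrophage and 10 endothelial markers, where the other libraries had 0 to 2.

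The same lists were measured in the other diet comparisons, each with its own controls. The adipocyte median was -1.38 in H against C, -0.49 in HH against CC_l and -1.65 in HHC against CCC, beside -1.36 in HC. Both HH libraries, 1 of 2 CC_l libraries and 1 of 2 CCC libraries have treatment fields that disagree with their titles. The values for HH and HHC in this paragraph thus rest on the titles. At Plin4 the log2 differences were -2.58, -0.55 and -1.82, and at Gpam -1.71, -0.50 and -1.26. Cnn2 had 0.38 in HH and 0.12 in HHC, beside -2.25 in HC, and Sfxn3 had a higher mean in each, with 1.12, 0.58 and 1.00. The interferon median was 0.40, 0.60 and 1.09. Whether these comparisons differ from HC was not tested.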

How the data were processed

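The authors trimmed reads (Trim Galore 0.6.6), aligned them to mm10 (GRCm38) with Bowtie2 2.4.4, and ran the peak caller SEACR 1.3 (stringent, threshold 0.01) on single libraries, without pooling replicates. Each deposited list gives a peak's position, its total signal (summed coverage) and its highest coverage. Both are unscaled whole numbers, so signal was divided by the library's median over the promoters marked in all 6 libraries before libraries were compared. Total read numbers were not used. Windows came from 41438 start sites of the basic GENCODE annotation. limma 3.58.1 (R 4.3.3, trend) was run on log2 relative signal with 3 libraries a group and no covariate. Its recovery of changed promoters was checked on simulated data with less spread and larger changes than these data. The power of the test at the spread of these libraries was not measured. Other p-values are exact permutation tests. The groups come from sample titles.

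The members, gene lists and tests were chosen with earlier results of these data known. Named promoters were the study's 6 examples, list members that were called, the called promoters with the highest mean percentile of signal (those called both ways first, at most 20 per direction, and 8 called with equal peak numbers only), and up to 5 per direction with the smallest limma p. The gained and lost calls are counts with no test. Alternatives covered windows, overlap, annotation, scaling, filters and each library left out. Replicate numbers were not used as a block, since the deviations of HC and CC_s libraries with the same number correlated at -0.02, -0.01 and -0.03. No replicate pair within a group shared an identical peak.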

Additional observations from a re-analysis of the deposited data

Results flagged for a closer look

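Over the 17 promoters of the TGF-beta and BMP list that were marked in all 6 libraries, the median log2 difference from the CC_s mean was 0.13, 0.08 and 0.10 in the HC libraries, and over 23 promoters it was -0.16, -0.06 and -0.25 in the HHC libraries against the CCC mean. The list was noted because each library of one comparison lay on the other side of 0 from each library of the other, and this difference was not tested. The medians of the differences between group means had the same sign, -0.03 in HC and -0.20 in HHC.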

How the results depend on the processing

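Read depth is unknown, so a promoter without a peak is one that no listed peak reached, and 3 libraries a group limit every comparison. With all peaks, leaving out 1 library gave 72 to 402 gained and 4 to 30 lost promoters, and with equal peak numbers 53 to 134 and 38 to 133. With all peaks, the gained count was 39 without the weakest peaks of each library, and it was 271, with 34 lost, when at least 2 of 3 libraries had to hold the mark. Other windows, overlaps and annotations kept both counts within 1.5 times the reported ones. limma called 0 promoters, and between 0 and 2 higher and between 0 and 6 lower when 1 library was left out (2 and 6 without HC replicate 1, and 0 and 5 without HC replicate 3). It called 2 higher (Fam43a and Tagln2) with the highest coverage and 4 lower (Cnn2, Hp, Pck1 and Plin4) with scaling by the library's total signal, which moved the median of all promoters to -0.27. Under that scaling the medians of the lysosome list (-0.02) and the cytokine list (-0.24) turned below 0, and relative to that shift they were not lower than other promoters. The adipocyte median stayed between -1.73 and -0.46 under the 13 alternatives. A fit with replicate number as a block gave 0 calls (smallest limma adjusted p = 0.120), and the numbers do not pair the samples. The causes of these changes were not tested.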
